A study of Mus musculus with 8 samples.

Results

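The fatty acid, wax and triglyceride synthesis genes described here are 40 listed mouse genes of sebum-type lipid synthesis, of which 36 were measured among 18193 genes. Each was read from probe sets annotated with that 1 gene symbol, and where a gene had several, from the one with the highest mean over the 8 arrays. Scd4, Awat2, Acsl1 and Soat1 had no such probe set and are not analysed here. The series profiled hair follicle cells of resting (telogen) mouse skin on Affymetrix arrays, and asked what raised levels of the transcription factor Runx1 do to them. Cells positive for keratin 15-GFP and α6-integrin were sorted by the surface protein CD34, the negative ones being labelled hair germ and the positive ones bulge. There were 4 groups with 2 arrays each: Runx1 iTG hair germ, WT hair germ, Runx1 iTG bulge and WT bulge. Runx1 iTG is labelled as a Tet-on Runx1 transgenic, and the sources used here do not name the promoter that drives it. All mice, WT included, ate food with 1 g of doxycycline per kg over 1 day, which the labels describe as given to repress H2BGFP. Mice were at postnatal day 20, except replicate 2 of both Runx1 iTG groups, labelled day 21, and the sources used here do not say whether a sample pooled animals.

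Fatty acids are built in the cytosol from acetyl-CoA: a carboxylase makes malonyl-CoA, fatty acid synthase joins these units into palmitate, and elongases and desaturases then set chain length and double bonds. Acyl-CoA synthetases activate fatty acids, reductases turn them into the alcohols of waxes, and acyltransferases load them onto glycerol to give triglycerides. In skin the sebaceous gland, which opens into the hair follicle above the bulge, runs these steps at high rate to make sebum.

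The labels were first set against known genes. Runx1 had 12107 and 12882 units of scaled intensity in Runx1 iTG hair germ against 495 and 489 in WT hair germ, and 19461 and 13699 in Runx1 iTG bulge against 658 and 904 in WT bulge. It rose by 4.67 ± 0.25 on the log2 scale in hair germ (SE, limma adjusted p = 8.46e-05) and by 4.40 ± 0.25 in bulge (adjusted p = 0.000147). Cd34 lay between 2.42 and 53.2 in the 4 hair germ samples, against 4902 to 11208 in the 4 bulge samples. Averaged over genotypes, all 8 bulge marker genes fell in hair germ at a limma adjusted p under 0.05. Of the 6 measured hair germ markers, 5 fell too and none rose. Of all genes, 9.17% rose and 9.11% fell in this comparison. The hair germ markers had summed levels of 1977 to 2882 in Runx1 iTG hair germ and 2206 to 2524 in WT hair germ. These sums were 8077 to 9264 in Runx1 iTG bulge and 7324 to 12104 in WT bulge. These markers therefore went against the hair germ label, and the name is used here only for the CD34-negative sort. Of 9 measured sebocyte markers outside the 40 genes, 7 rose and 1 fell in hair germ in the same comparison. The marker lists were chosen with earlier results of these data known. By the signals of Xist, 9973 to 11103 on replicate 2 and 30.2 to 72.5 on replicate 1 of every group, sex followed the replicate number. Median deposited intensity was 101.7 to 162 per array, and 68.95% to 76.97% of probe sets lay above the background limit of 31.1 units.

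The promoters of 6 of the genes are shown first. The windows hold 250 bases before and 50 after the annotated start, 5′ to 3′ on the gene's strand, from RefSeq on build GRCm38.p6. Far2, Mogat1, Acsbg1 and Acsl4 are shown because, among genes with a single such window, they had the largest fitted differences between hair germ and bulge. Fasn is shown as the central synthase and Acacb as a gene with a RUNX core. Capitals mark the RUNX core TGTGGT and the NF-Y box CCAAT, on either strand.
Far2, chr6:148047166-148047465, plus strand: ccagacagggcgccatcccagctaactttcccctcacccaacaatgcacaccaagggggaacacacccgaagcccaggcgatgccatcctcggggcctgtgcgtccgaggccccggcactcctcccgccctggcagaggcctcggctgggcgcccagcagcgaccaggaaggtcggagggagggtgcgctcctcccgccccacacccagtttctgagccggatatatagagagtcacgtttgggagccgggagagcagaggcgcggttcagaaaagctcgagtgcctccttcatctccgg
Mogat1, chr1:78510810-78511109, plus strand: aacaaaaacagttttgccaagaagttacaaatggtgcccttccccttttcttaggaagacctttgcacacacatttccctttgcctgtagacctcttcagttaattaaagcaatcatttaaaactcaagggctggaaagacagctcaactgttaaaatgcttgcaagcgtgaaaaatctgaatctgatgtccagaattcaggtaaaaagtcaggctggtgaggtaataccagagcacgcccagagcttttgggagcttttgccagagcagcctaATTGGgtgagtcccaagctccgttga
Acsbg1, chr9:54661836-54662135, minus strand: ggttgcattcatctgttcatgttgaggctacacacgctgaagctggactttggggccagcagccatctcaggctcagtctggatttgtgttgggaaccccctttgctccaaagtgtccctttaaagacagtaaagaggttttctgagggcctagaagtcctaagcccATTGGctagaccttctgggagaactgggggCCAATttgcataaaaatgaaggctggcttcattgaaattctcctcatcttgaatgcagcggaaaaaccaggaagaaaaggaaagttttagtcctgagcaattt
Acsl4, chrX:142390486-142390785, minus strand: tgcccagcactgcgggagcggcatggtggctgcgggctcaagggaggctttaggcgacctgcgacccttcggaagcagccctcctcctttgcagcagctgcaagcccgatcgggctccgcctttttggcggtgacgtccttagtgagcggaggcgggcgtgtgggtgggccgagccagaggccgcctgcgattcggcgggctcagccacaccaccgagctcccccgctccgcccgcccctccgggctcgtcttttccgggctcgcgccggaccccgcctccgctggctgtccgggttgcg
Acacb, chr5:114165268-114165567, plus strand: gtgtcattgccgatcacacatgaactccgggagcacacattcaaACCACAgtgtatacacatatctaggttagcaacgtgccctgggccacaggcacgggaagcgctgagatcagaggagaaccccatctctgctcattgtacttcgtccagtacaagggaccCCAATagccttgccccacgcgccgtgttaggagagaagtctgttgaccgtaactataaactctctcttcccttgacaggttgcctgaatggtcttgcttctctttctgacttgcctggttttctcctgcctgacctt
Fasn, chr11:120824498-120824797, minus strand: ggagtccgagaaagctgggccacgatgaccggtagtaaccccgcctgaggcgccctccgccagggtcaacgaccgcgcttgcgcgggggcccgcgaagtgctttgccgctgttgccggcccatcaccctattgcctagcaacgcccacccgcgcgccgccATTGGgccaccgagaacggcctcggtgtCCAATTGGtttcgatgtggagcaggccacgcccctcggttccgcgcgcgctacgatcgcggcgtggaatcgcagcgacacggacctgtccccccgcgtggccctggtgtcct
Fasn held 3 NF-Y boxes, at -90, -62 and -59 from the start site, of which the last 2 overlap, and Acsbg1 held 2, at -83 and -53. Mogat1 held 1, at 25 bases past the start, and Acacb held 1 at -87 beside a RUNX core at -206. Far2 and Acsl4 held neither motif in these windows. The sterol regulatory element type TCACNCCAC was in none of the 6. Promoter windows were matched for 33 of the 40 genes, 42 windows in all. Scd1, Scd2, Elovl3, Fads1, Fa2h, Dgat1 and Dgat2 had none. The NF-Y box was in 54.8% of these windows, against 37.4% of all 32851 promoter windows of the table, and the RUNX core in 11.9% against 16.8%. The sterol element type was in 1 of the 42, that of Acsl1, and in 1.2% of all windows. A match describes letters in a window and was not tested as a binding site.

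Of the 36 lipid synthesis genes measured, 16 rose in hair germ against bulge in both genotypes. Among the largest differences averaged over genotypes were those of the wax gene Far2 (20.6-fold), the fatty acid hydroxylase Fa2h (17.9-fold) and the elongase Elovl3 (16.4-fold), all higher in hair germ. The acyltransferase Mogat1 had a fitted difference of 4.16 on the log2 scale, which includes 1 bulge array below the background limit and was 3.40 without it. In Runx1 iTG mice 21 of 36 genes rose in hair germ and 1 fell, where 4.5% of all genes rose and 5.26% fell. In WT mice 17 rose and 1 fell, where 3.14% of all genes rose and 3.79% fell. Averaged over genotypes 22 rose and 4 fell, beside 9.17% and 9.11% of all genes. The 16 genes that rose in both genotypes, where 2.26% of all genes did, were Srebf1, Acss2, Acacb, Me1, Fasn, Elovl3, Elovl6, Scd1, Acsl4, Acsl5, Acsbg1, Fa2h, Far2, Gpam, Lpin1 and Dgat2. None fell in both, where 2.81% of all genes did. Differences were above 0 for 26 of 36 genes in Runx1 iTG and 27 of 36 in WT, beside 47.1% and 45.6% of all genes. The median difference over the 36 genes was 1.43 in Runx1 iTG and 1.07 in WT, on the log2 scale, where the medians over all genes were -0.06 and -0.08. Every call is a limma adjusted p under 0.05 over all 18193 genes, and each value with ± below is a log2 difference with its standard error. In sorted bulk samples, fewer cells of a type and less RNA per cell cannot be told apart. Of the 36 genes, 34 lay above the background limit on all 8 arrays, none was filtered out, and the exceptions were Mogat1 on 1 array and Fads3 on 2.

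**Figure D1:**
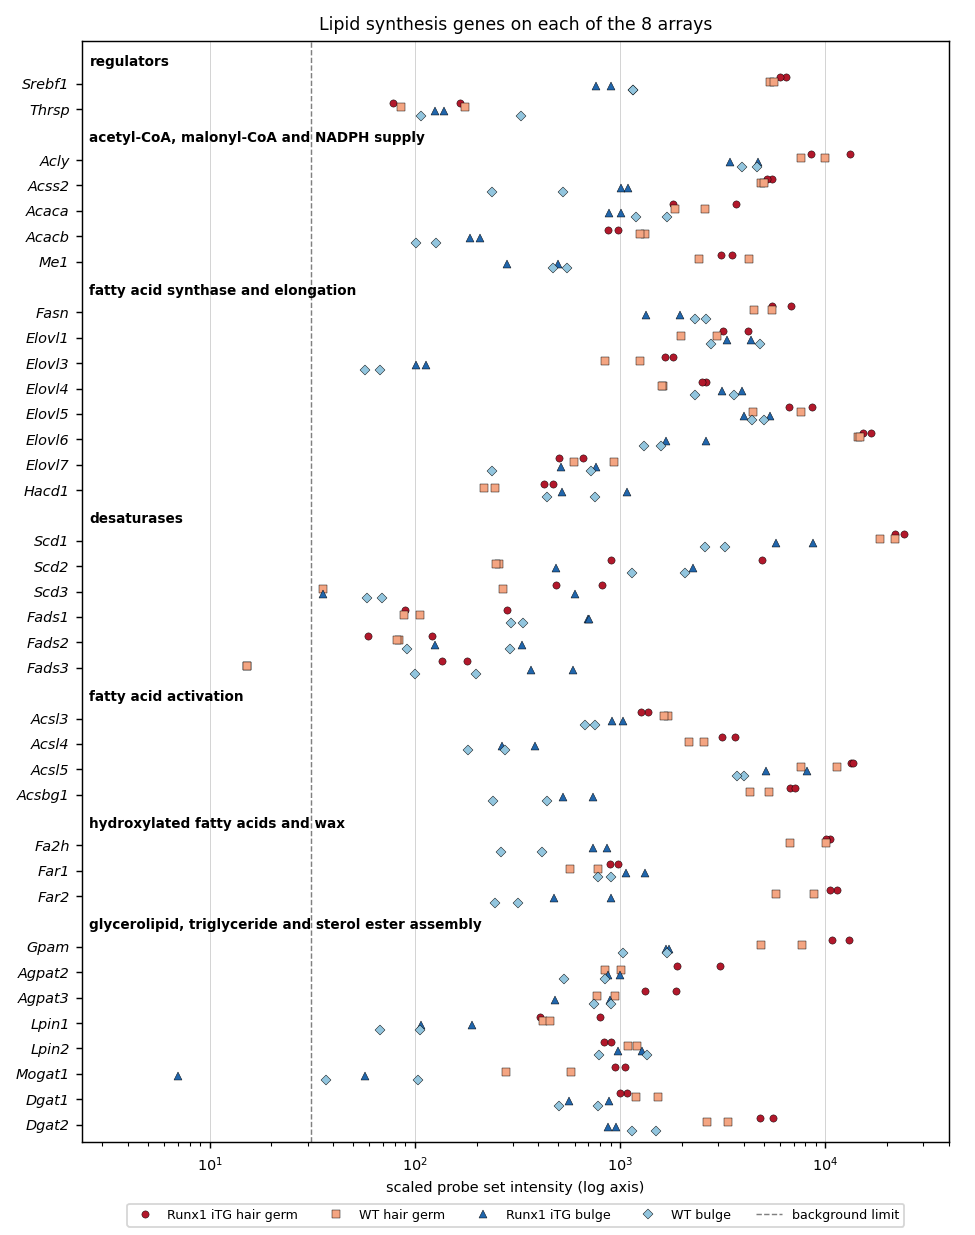
Scaled intensity of the 36 measured genes on each of the 8 arrays (log axis), grouped by role, with 1 marker per array, a colour and shape per group, and the background limit of 31.1 units as a dashed line. For Far2, Fa2h, Elovl3 and Acsbg1 all 4 hair germ arrays lie far to the right of all 4 bulge arrays, while for Fads1, Elovl4 and Hacd1 the order turns round within each genotype.

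**Figure D2:**
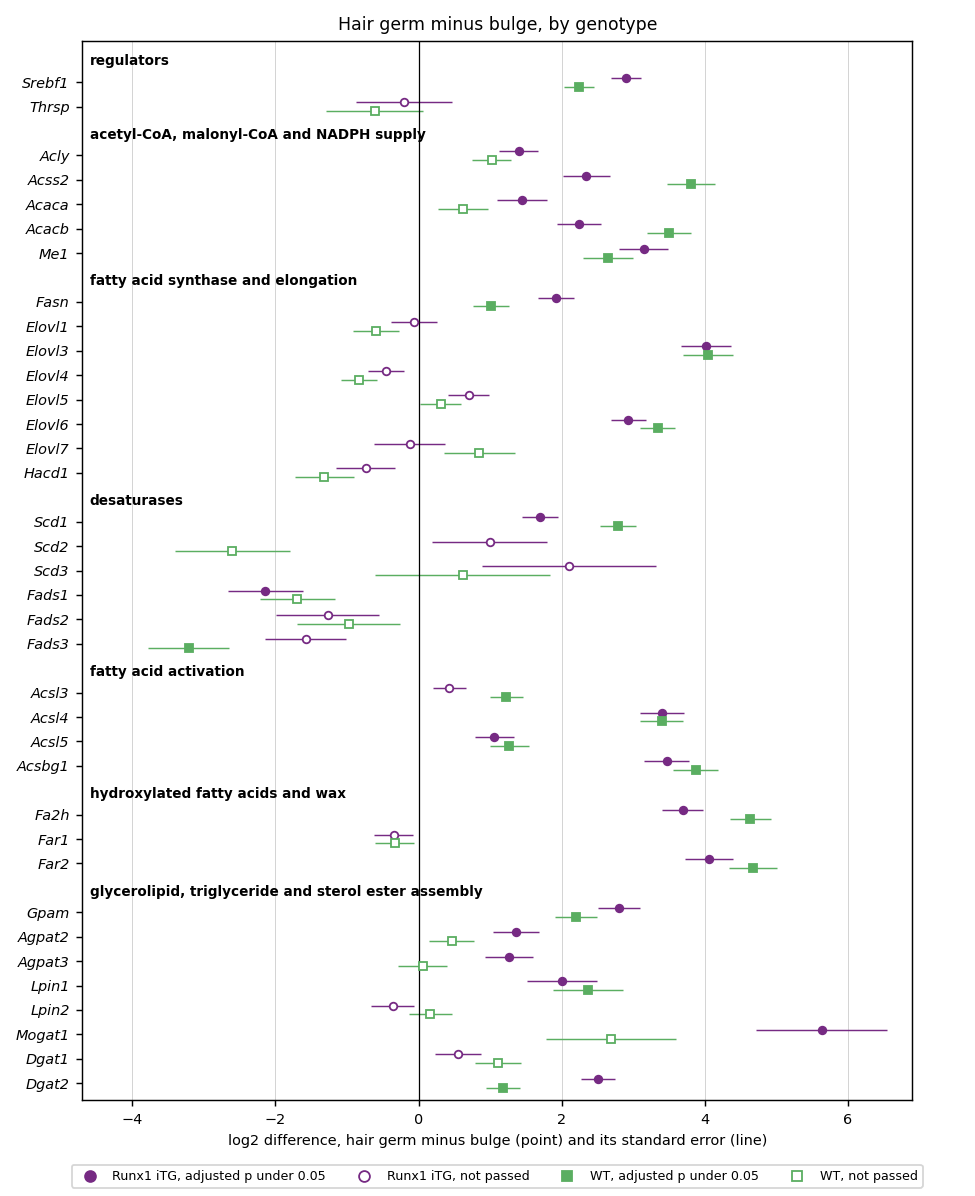
Hair germ minus bulge differences on the log2 scale (points) with standard errors (lines) for the 36 genes, in Runx1 iTG (circles) and WT (squares), 2 arrays per group. Filled markers passed at an adjusted p under 0.05; 16 genes are filled to the right of 0 in both genotypes, and no gene is filled to the left in both.

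Of the 2 regulators, Srebf1 encodes the transcription factor that switches on fatty acid synthesis genes. It had 6422 and 6026 in Runx1 iTG hair germ against 903 and 766 in Runx1 iTG bulge, and 5352 and 5612 in WT hair germ against 1157 and 1158 in WT bulge. Every hair germ sample was several times as high as every bulge sample. Its difference was 2.90 ± 0.21 in Runx1 iTG (adjusted p = 9.14e-05) and 2.24 ± 0.21 in WT (adjusted p = 0.000286). Thrsp, a small protein linked to lipogenesis, ranged over 78.3 to 176 in hair germ samples and 107 to 329 in bulge samples, which overlapped, and did not pass in any comparison.

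All 5 genes that supply acetyl-CoA, malonyl-CoA and NADPH had higher values in hair germ than in bulge in each genotype, with no overlap. Within a single genotype this held for 23.9% of all genes in Runx1 iTG and 23% in WT. The share of all genes in both was not computed. Acss2, which makes acetyl-CoA from acetate, had 5519 and 5179 in Runx1 iTG hair germ against 1009 and 1097 in Runx1 iTG bulge, and 4866 and 5024 in WT hair germ against 237 and 525 in WT bulge. The hair germ samples lay close together, and the WT bulge samples were the lowest. Its difference was 2.35 ± 0.33 in Runx1 iTG (adjusted p = 0.0022) and 3.81 ± 0.33 in WT (adjusted p = 0.000248), and 2.46 in WT with the mean of its probe sets. Acacb, the acetyl-CoA carboxylase of the mitochondrial surface, had 982 and 877 in Runx1 iTG hair germ against 208 and 185 in Runx1 iTG bulge, and 1317 and 1246 in WT hair germ against 101 and 126 in WT bulge. Its difference was 2.24 ± 0.31 in Runx1 iTG (adjusted p = 0.00196) and 3.50 ± 0.31 in WT (adjusted p = 0.00026). The WT samples were the highest in hair germ and the lowest in bulge. Me1, the malic enzyme that yields NADPH, had 3116 and 3527 in Runx1 iTG hair germ against 280.4 and 499.8 in Runx1 iTG bulge, and 2425 and 4247 in WT hair germ against 553 and 473 in WT bulge, and its difference was 3.15 ± 0.35 in Runx1 iTG (adjusted p = 0.000605) and 2.65 ± 0.35 in WT (adjusted p = 0.00179). Acly, which splits citrate into acetyl-CoA, had 13164 and 8552 in Runx1 iTG hair germ against 4693 and 3438 in Runx1 iTG bulge, and 7625 and 9915 in WT hair germ against 4649 and 3944 in WT bulge. It rose in Runx1 iTG by 1.40 ± 0.27 (adjusted p = 0.011), and its WT difference was 1.02 ± 0.27 (adjusted p = 0.0544). Its Runx1 iTG difference was 0.88 with the mean of its probe sets (adjusted p = 0.211). Its Runx1 iTG call was also lost without replicate 1 of Runx1 iTG hair germ (0.107) and without replicate 2 of Runx1 iTG bulge (0.095, both adjusted p).

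Acaca, the cytosolic acetyl-CoA carboxylase that sets the pace of fatty acid synthesis, had 3667 and 1806 in Runx1 iTG hair germ against 881 and 1006 in Runx1 iTG bulge, and 1850.5 and 2585 in WT hair germ against 1197 and 1693 in WT bulge. Replicate 1 of Runx1 iTG hair germ was the highest, and within each genotype the populations did not overlap. It rose in Runx1 iTG by 1.45 ± 0.35 (adjusted p = 0.0284), and its WT difference was 0.62 ± 0.35 (adjusted p = 0.361). The Runx1 iTG call was lost without replicate 1 of Runx1 iTG hair germ (0.224), replicate 1 or 2 of Runx1 iTG bulge (0.131 and 0.114) or replicate 2 of WT bulge (0.0509, all adjusted p). Without the first of these arrays the difference was 0.94. The difference averaged over genotypes, 1.03 ± 0.25 (adjusted p = 0.0167), was lost in 5 of 8 such fits, with adjusted p up to 0.0809 without replicate 2 of WT hair germ.

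Fatty acid synthase and 2 of the 6 elongases measured rose in hair germ in both genotypes, beside 2.26% of all genes. Fasn, the synthase that makes palmitate, had 6829 and 5482 in Runx1 iTG hair germ against 1947 and 1339 in Runx1 iTG bulge, and 4468 and 5483 in WT hair germ against 2306 and 2619.7 in WT bulge. Every hair germ sample was above every bulge sample. Fasn rose by 1.92 ± 0.25 in Runx1 iTG (adjusted p = 0.00144) and 1.01 ± 0.25 in WT (adjusted p = 0.0406). The WT call was lost in 6 of 8 fits without 1 array, with adjusted p up to 0.251 without replicate 2 of WT hair germ. Elovl6, which lengthens palmitate, had 16681 and 15273 in Runx1 iTG hair germ against 2612 and 1679 in Runx1 iTG bulge, and 14493 and 14665 in WT hair germ against 1578 and 1302 in WT bulge. The hair germ samples were close to each other and far above the bulge samples, and Elovl6 rose by 2.93 ± 0.25 in Runx1 iTG (adjusted p = 0.000188) and 3.35 ± 0.25 in WT (adjusted p = 0.000109). Elovl3, a skin elongase of saturated and monounsaturated very long chains, had 1807 and 1658 in Runx1 iTG hair germ against 101 and 113 in Runx1 iTG bulge, and 848 and 1245 in WT hair germ against 57.0 and 67.5 in WT bulge. The Runx1 iTG samples were the higher ones in both populations. Elovl3 rose by 4.02 ± 0.35 in Runx1 iTG (adjusted p = 0.000235) and 4.05 ± 0.35 in WT (adjusted p = 0.000248).

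Other genes of chain elongation ran the other way or did not pass. Elovl4, which makes the longest chains of the skin barrier, had 2626 and 2496 in Runx1 iTG hair germ against 3909 and 3138 in Runx1 iTG bulge, and 1610.0 and 1607 in WT hair germ against 3582 and 2306 in WT bulge. Its hair germ samples were below the bulge samples of the same genotype. Elovl4 fell by 0.64 on average over genotypes (SE 0.18, adjusted p = 0.0325), a call lost in 7 of 8 fits without 1 array, with adjusted p up to 0.0982 without replicate 2 of WT hair germ. Hacd1, a dehydratase of the elongation cycle, had 424 and 472 in Runx1 iTG hair germ against 1077 and 519 in Runx1 iTG bulge, and 245 and 216 in WT hair germ against 751 and 439.8 in WT bulge. WT hair germ samples were the lowest, and the populations were apart in each genotype. Hacd1 fell by 1.03 on average (SE 0.29, adjusted p = 0.0347), and the call was lost in 6 of the 8 fits, with adjusted p up to 0.126 without replicate 1 of WT bulge. Elovl5, an elongase of polyunsaturated chains and a bright probe set, had 8576 and 6670.0 in Runx1 iTG hair germ against 5388 and 4009.6 in Runx1 iTG bulge, and 4426 and 7602 in WT hair germ against 4373 and 5009 in WT bulge. Its WT samples overlapped, and it did not pass, with a difference of 0.70 ± 0.29 in Runx1 iTG and 0.31 ± 0.29 in WT. Elovl1 and Elovl7, elongases of other chain lengths, did not pass in any comparison, with hair germ minus bulge differences of -0.06 and -0.13 in Runx1 iTG and -0.59 and 0.85 in WT. Acly, Elovl1, Elovl5 and Fads2 were read from probe sets of the suffix _x_at and Acsl3, Hacd1 and Dgat1 from _s_at, which can detect related transcripts.

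Averaged over genotypes, Scd1 was higher and Fads1 and Fads3 were lower in hair germ, among the 6 desaturases measured. The shares of all genes were 9.17% and 9.11%. Scd1, the stearoyl-CoA desaturase of sebaceous glands that puts the first double bond into saturated fatty acids, had 21901 and 24098 in Runx1 iTG hair germ against 8699.6 and 5769 in Runx1 iTG bulge, and 18381 and 21871 in WT hair germ against 3255 and 2595 in WT bulge. The hair germ samples did not overlap with bulge, and the Runx1 iTG samples were the higher ones in both populations. Scd1 rose by 1.70 ± 0.25 in Runx1 iTG (adjusted p = 0.00263) and 2.79 ± 0.25 in WT (adjusted p = 0.000264). Fads1, a desaturase of polyunsaturated fatty acids, had 89.3 and 281 in Runx1 iTG hair germ against 697 and 704 in Runx1 iTG bulge, and 89.0 and 106 in WT hair germ against 293 and 337 in WT bulge. All hair germ samples were below all bulge samples. Fads1 fell by 2.15 in Runx1 iTG (SE 0.52, adjusted p = 0.0299), a call lost in 5 of 8 fits without 1 array, with adjusted p up to 0.181 without replicate 1 of Runx1 iTG hair germ, where the difference was -1.32, and its WT difference was -1.69 ± 0.52 (adjusted p = 0.0908). Averaged over genotypes it fell by 1.92 (SE 0.37, adjusted p = 0.00562).

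Fads3, a related desaturase, had 135 and 179 in Runx1 iTG hair germ against 589 and 366 in Runx1 iTG bulge, and 15.1 and 15.2 in WT hair germ against 99.9 and 199 in WT bulge. On the probe set used, both WT hair germ samples were below the background limit, and all other samples were above it. In WT it was at least 4.53-fold lower in hair germ (adjusted p = 0.00892, fitted difference -3.22 ± 0.57), and this call was lost without replicate 2 of WT hair germ (0.0534) or of WT bulge (0.109, both adjusted p). In Runx1 iTG the difference was -1.58 ± 0.57 (adjusted p = 0.122). Fads2, the partner enzyme of Fads1 in polyunsaturated fatty acid synthesis, ranged over 59.2 to 121 in hair germ samples and 91.6 to 332 in bulge samples, and did not pass, with a difference of -1.27 ± 0.72 in Runx1 iTG and -0.98 ± 0.72 in WT.

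Scd2 and Scd3 are stearoyl-CoA desaturases of the same family. Scd2 had 4895 and 898 in Runx1 iTG hair germ against 2274 and 488 in Runx1 iTG bulge, and 257 and 249.6 in WT hair germ against 2067 and 1148 in WT bulge. The 2 WT hair germ samples were below all other samples, and the 2 samples of each Runx1 iTG group lay far apart, with replicate 1 higher. Its difference was 0.99 ± 0.80 in Runx1 iTG (adjusted p = 0.524) and -2.61 ± 0.80 in WT (adjusted p = 0.0893). Scd3 had 815 and 489.7 in Runx1 iTG hair germ against 35.8 and 603 in Runx1 iTG bulge, and 35.5 and 267 in WT hair germ against 68.9 and 58.6 in WT bulge. Replicates of WT hair germ and of Runx1 iTG bulge were far apart, with replicate 2 higher, and Scd3 did not pass in any comparison, its hair germ minus bulge difference being 2.10 ± 1.22 in Runx1 iTG (adjusted p = 0.354) and 0.62 ± 1.22 in WT (adjusted p = 0.835). The other probe sets of Scd2 and Scd3 gave hair germ minus bulge averages of -1.29 and -0.996 for Scd2 and 1.55 for Scd3, beside -0.81 and 1.36 for those used.

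**Figure D3:**
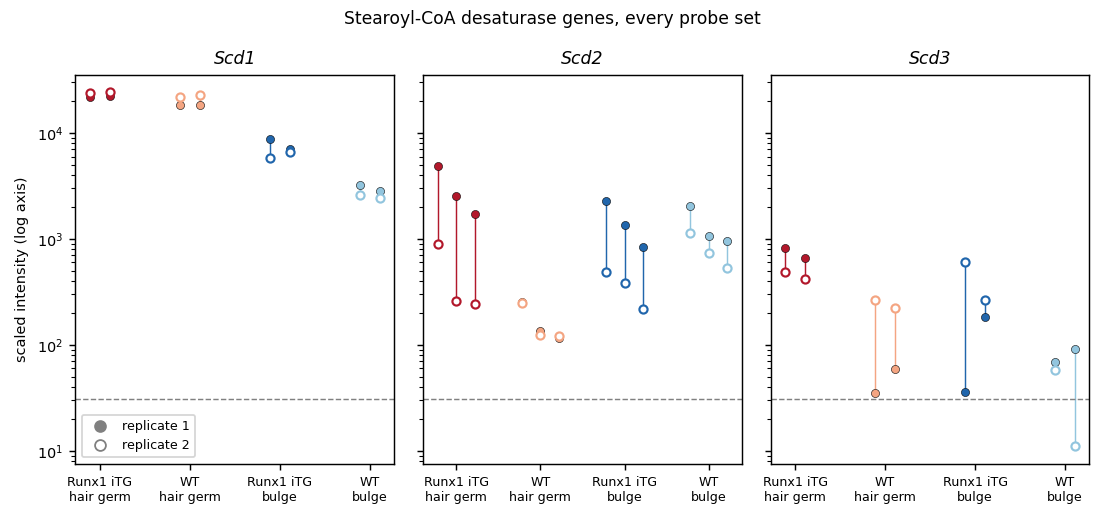
Scaled intensity (log axis) of every probe set of Scd1, Scd2 and Scd3 on the 8 arrays, with a line joining the 2 replicates of a group, filled points for replicate 1 and open points for replicate 2, and the background limit dashed. The 2 probe sets of Scd1 fall in the same order across groups with close replicates, whereas on all 3 probe sets of Scd2 replicate 1 lies above replicate 2 in Runx1 iTG hair germ, Runx1 iTG bulge and WT bulge.

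All 4 acyl-CoA synthetases measured had higher values in hair germ in each genotype, with no overlap. Within a single genotype this held for 23.9% of all genes in Runx1 iTG and 23% in WT. Acsbg1, which activates very long chains, had 6719 and 7096 in Runx1 iTG hair germ against 734 and 528 in Runx1 iTG bulge, and 4311 and 5303 in WT hair germ against 441 and 241 in WT bulge. Acsl4, which prefers arachidonic acid, had 3153 and 3648 in Runx1 iTG hair germ against 264 and 387 in Runx1 iTG bulge, and 2161 and 2572 in WT hair germ against 276 and 182 in WT bulge. In both genes every hair germ sample was above every bulge sample by a wide margin. Acsbg1 rose by 3.47 ± 0.31 in Runx1 iTG (adjusted p = 0.000261) and 3.87 ± 0.31 in WT (adjusted p = 0.000182). Acsl4 rose by 3.41 ± 0.31 in Runx1 iTG (adjusted p = 0.000261) and 3.40 ± 0.31 in WT (adjusted p = 0.000274). The promoters of both are printed above: Acsbg1 with 2 NF-Y boxes, Acsl4 with none.

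Acsl5, a synthetase of the inner mitochondrial and reticulum membranes, had 13366 and 13579 in Runx1 iTG hair germ against 8129.9 and 5155 in Runx1 iTG bulge, and 7622 and 11348 in WT hair germ against 3999 and 3728 in WT bulge. The populations were apart within each genotype, although replicate 1 of WT hair germ lay below replicate 1 of Runx1 iTG bulge. Acsl5 rose by 1.06 ± 0.27 in Runx1 iTG (adjusted p = 0.0367) and 1.27 ± 0.27 in WT (adjusted p = 0.0216). The Runx1 iTG call was lost in 5 and the WT call in 3 of 8 fits without 1 array, with adjusted p up to 0.219 without replicate 2 of Runx1 iTG bulge and 0.194 without replicate 2 of WT hair germ. Acsl3, a synthetase of lipid droplets, had 1362 and 1262 in Runx1 iTG hair germ against 918 and 1037 in Runx1 iTG bulge, and 1702 and 1644 in WT hair germ against 675 and 758 in WT bulge. The WT samples were the highest in hair germ and the lowest in bulge. It rose in WT by 1.23 ± 0.23 (adjusted p = 0.0121), lost in 4 of 8 fits with adjusted p up to 0.0791 without replicate 2 of WT hair germ, and its Runx1 iTG difference was 0.43 ± 0.23 (adjusted p = 0.315).

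The wax and hydroxylated lipid genes Far2 and Fa2h were among those with the largest differences. Far2, which reduces fatty acyl-CoA to the alcohols of waxes, had 11423 and 10507 in Runx1 iTG hair germ against 479 and 902 in Runx1 iTG bulge, and 5746 and 8817 in WT hair germ against 317 and 244 in WT bulge. Fa2h, which adds a hydroxyl group to the fatty acids of sphingolipids, had 10574 and 10107 in Runx1 iTG hair germ against 866 and 737 in Runx1 iTG bulge, and 6745 and 10082 in WT hair germ against 418 and 262 in WT bulge. In both genes the bulge samples were the lower ones without exception, and WT bulge was the lowest group. Far2 rose by 4.06 ± 0.33 in Runx1 iTG (adjusted p = 0.000183) and 4.68 ± 0.33 in WT (adjusted p = 0.000109). Fa2h rose by 3.69 ± 0.29 in Runx1 iTG (adjusted p = 0.000151) and 4.64 ± 0.29 in WT (adjusted p = 4.67e-05). Far1, the other fatty acyl-CoA reductase, ranged over 571 to 982 in hair germ samples and 779.9 to 1321 in bulge samples and did not pass, with a difference of -0.35 ± 0.27 in Runx1 iTG and -0.33 ± 0.27 in WT.

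Of the 8 genes measured for glycerolipid and triglyceride assembly, 6 rose in Runx1 iTG and 3 in WT, beside 4.5% and 3.14% of all genes. Gpam, the mitochondrial acyltransferase of the first step onto glycerol phosphate, had 10725 and 13045 in Runx1 iTG hair germ against 1721 and 1667 in Runx1 iTG bulge, and 4834 and 7675 in WT hair germ against 1689 and 1035 in WT bulge. The populations were well apart, and both Runx1 iTG hair germ samples were above both WT hair germ samples. Gpam rose by 2.80 ± 0.30 in Runx1 iTG (adjusted p = 0.000513) and 2.20 ± 0.30 in WT (adjusted p = 0.0021). Dgat2, which adds the last fatty acid of a triglyceride, had 5553 and 4803 in Runx1 iTG hair germ against 950.4 and 869.7 in Runx1 iTG bulge, and 2645 and 3367 in WT hair germ against 1148 and 1504 in WT bulge. The Runx1 iTG samples were higher in hair germ and lower in bulge than WT samples. Dgat2 rose by 2.51 ± 0.24 in Runx1 iTG (adjusted p = 0.00032) and 1.18 ± 0.24 in WT (adjusted p = 0.017), and the WT call was lost in 3 of 8 fits without 1 array, with adjusted p up to 0.148 without replicate 2 of WT hair germ.

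Mogat1, which acylates monoacylglycerol, had 1051 and 944 in Runx1 iTG hair germ against 57.5 and 6.98 in Runx1 iTG bulge, and 575 and 278 in WT hair germ against 104 and 36.8 in WT bulge. Replicate 2 of Runx1 iTG bulge was below the background limit, and all hair germ samples were above all bulge samples. In Runx1 iTG it was at least 23.5-fold higher in hair germ, with the array below the limit set to it (adjusted p = 0.00423, fitted difference 5.64 ± 0.91), and its WT difference was 2.69 ± 0.91 (adjusted p = 0.118). Without that array its Runx1 iTG difference was 4.12 and its average over genotypes 3.40. Lpin1, a phosphatidate phosphatase, had 800.0 and 407 in Runx1 iTG hair germ against 107 and 189.7 in Runx1 iTG bulge, and 419 and 453 in WT hair germ against 106 and 67.3 in WT bulge. All hair germ samples were above all bulge samples. Lpin1 rose by 2.01 ± 0.49 in Runx1 iTG (adjusted p = 0.0298) and 2.37 ± 0.49 in WT (adjusted p = 0.0185). The calls were lost in 5 of the 8 fits in Runx1 iTG, with adjusted p up to 0.247 without replicate 1 of Runx1 iTG hair germ, and in 4 of the 8 in WT, up to 0.153 without replicate 2 of WT bulge.

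Agpat2 and Agpat3 add the second fatty acid to the glycerol backbone. Agpat2 had 3052 and 1887 in Runx1 iTG hair germ against 1003 and 869.6 in Runx1 iTG bulge, and 1007 and 849 in WT hair germ against 844 and 533 in WT bulge. Agpat3 had 1873 and 1324 in Runx1 iTG hair germ against 479.9 and 890.3 in Runx1 iTG bulge, and 774 and 939 in WT hair germ against 899 and 748 in WT bulge. In both genes the Runx1 iTG hair germ samples were above all others. Agpat2 rose in Runx1 iTG by 1.36 ± 0.32 (adjusted p = 0.0251), lost in 3 of the 8 fits with adjusted p up to 0.216 without replicate 1 of Runx1 iTG hair germ, and its WT difference was 0.46 ± 0.32 (adjusted p = 0.465). The average of Agpat2 over genotypes, 0.91 ± 0.23 (adjusted p = 0.0196), was lost in 5 of 8, up to 0.0864 without the same array. Agpat3 rose in Runx1 iTG by 1.27 ± 0.34 (adjusted p = 0.0428), and this was lost in 7 of the 8, up to 0.279 without that array, and the difference was 0.82 without replicate 1 of Runx1 iTG bulge. Its WT difference was 0.06 ± 0.34 (adjusted p = 0.956). Dgat1, the second enzyme of the last triglyceride step, had 1074 and 997 in Runx1 iTG hair germ against 887 and 562 in Runx1 iTG bulge, and 1528 and 1200.3 in WT hair germ against 779 and 506 in WT bulge. Hair germ samples were above bulge samples. Its average difference of 0.83 ± 0.23 (adjusted p = 0.0301) was lost in 6 of the 8 fits, up to 0.114 without replicate 2 of WT bulge, and its other probe set had a difference of -0.60, which gave 0.11 for the mean of both (adjusted p = 0.706). Lpin2, a phosphatase related to Lpin1, did not pass, with values of 835 to 1215 in hair germ and 786 to 1348 in bulge.

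Of the 28 genes with several probe sets, 24 had 1 sign of the average difference on all of them, and Acly, Dgat1, Elovl7 and Far1 did not, Acly only on a probe set below the background limit on all 8 arrays. Of the 22 genes called in Runx1 iTG, 15 kept the call in every fit that left out 1 array, as did 12 of the 18 called in WT. With the 6 day 20 arrays alone, 1 array stands for each Runx1 iTG group and is assumed to vary like the others. The median difference over the 36 genes in Runx1 iTG was then 1.71, beside -0.11 over all genes. Fits on fewer arrays called fewer of all genes between hair germ and bulge, as well as fewer of the 36 in Runx1 iTG.

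The comparison of Runx1 iTG with WT asked whether the transgene moved these genes within a population. None of the 36 genes passed in hair germ, where 0.0275% of all genes passed in limma, and none in bulge, where 0.022% did. At an unadjusted p under 0.05 there were 8 in hair germ and 11 in bulge, beside 6.78% and 5.96% of all genes. No tool other than limma was run. Differences above 0 were measured for 30 of 36 genes in hair germ and 25 of 36 in bulge, beside 52.9% and 51.9% of all genes, and for 20 of 36 in both, beside 30% of all genes. Both Runx1 iTG samples were above both WT samples for 22 genes in hair germ and 15 in bulge, beside 19.9% and 17.3% of all genes. They were below both for 4 genes in hair germ and 4 in bulge, beside 2871 and 2992 of all 18193 genes. The median difference was 0.44 in hair germ and 0.41 in bulge, beside 0.03 and 0.02 over all genes. Interval widths limit what this shows: the 95% interval lay within 2-fold either way for 9 genes in hair germ and 8 in bulge.

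**Figure D4:**
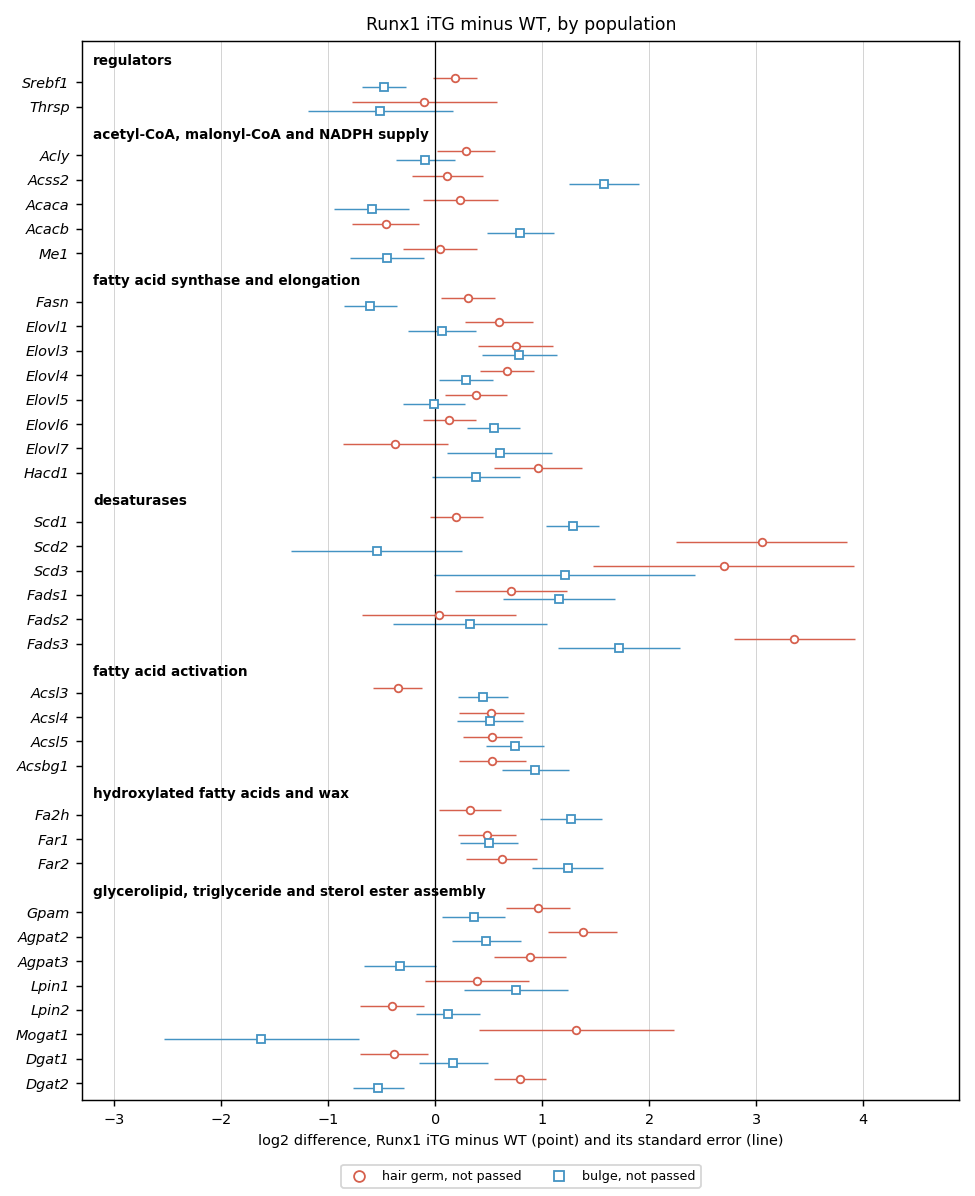
Runx1 iTG minus WT differences on the log2 scale (points) with standard errors (lines) for the 36 genes, in hair germ (circles) and bulge (squares), 2 arrays per group. All markers are open because no gene passed at an adjusted p under 0.05; 30 points lie to the right of 0 in hair germ and 25 in bulge.

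In hair germ the smallest p was that of Fads3. Its samples, given above, were 135 and 179 in Runx1 iTG and 15.1 and 15.2 in WT, a level at least 5.0-fold higher in Runx1 iTG (fitted difference 3.36 ± 0.57, unadjusted p = 0.000157 in limma, adjusted p = 0.124). The fitted difference was 1.63 with the mean of its probe sets. All its other probe sets lay below the background limit on all 4 hair germ arrays, so the higher level was seen on the probe set used alone. In bulge its difference was 1.72 ± 0.57 (adjusted p = 0.731). Averaged over populations it did not pass (adjusted p = 0.086). Agpat2 had 3052 and 1887 in Runx1 iTG hair germ against 1007 and 849 in WT hair germ, a difference of 1.38 ± 0.32 (95% interval 0.66 to 2.09, adjusted p = 0.276). Scd2 had 4895 and 898 against 257 and 249.6 in the same groups, and its difference of 3.05 ± 0.80 had an interval of 1.26 to 4.84 (adjusted p = 0.401). Dgat2 and Gpam differed by 0.79 ± 0.24 (adjusted p = 0.491) and 0.96 ± 0.30 (adjusted p = 0.513), again with both Runx1 iTG samples above both WT samples. Scd3 and Mogat1 differed by 2.70 ± 1.22 (adjusted p = 0.748) and 1.32 ± 0.91 (adjusted p = 0.881).

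In bulge the leading genes were others. Scd1 had 8699.6 and 5769 in Runx1 iTG bulge against 3255 and 2595 in WT bulge, without overlap, a difference of 1.29 ± 0.25 (95% interval 0.73 to 1.84, limma adjusted p = 0.362). Acss2 had 1009 and 1097 against 237 and 525, a difference of 1.58 ± 0.33 (adjusted p = 0.418). This was 0.63 with the mean of its 3 probe sets, of which 1 had a difference of -0.77, and 1.00 without replicate 1 of WT bulge. Fa2h had 866 and 737 against 418 and 262, a difference of 1.27 ± 0.29 (adjusted p = 0.506), and Far2 had 479 and 902 against 317 and 244, a difference of 1.24 ± 0.33 (adjusted p = 0.669), or 0.78 without replicate 2 of Runx1 iTG bulge. In all 4 the Runx1 iTG bulge samples were above the WT bulge samples and none passed. Fads1 and Scd3 differed by 1.16 ± 0.52 (adjusted p = 0.846) and 1.21 ± 1.22 (adjusted p = 0.945). Differences lay the other way for 11 of the 36 genes. Srebf1 and Fasn were at -0.48 ± 0.21 (adjusted p = 0.807) and -0.61 ± 0.25 (adjusted p = 0.785). Acaca and Dgat2 were at -0.60 ± 0.35 (adjusted p = 0.911) and -0.53 ± 0.24 (adjusted p = 0.839). In these 4 genes both Runx1 iTG bulge samples were below both WT bulge samples. Mogat1 was at -1.63 ± 0.91 (adjusted p = 0.895), with 1 array below the background limit.

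The difference between the 2 transgene differences, hair germ minus bulge, passed for none of the 36 genes, as for 0% of all genes in limma. Unadjusted, 11 of the 36 had p under 0.05, beside 4.61% of all genes. It was 3.60 ± 1.13 for Scd2, 2.94 ± 1.29 for Mogat1 and 1.32 ± 0.34 for Dgat2, against -1.46 ± 0.47 for Acss2 and -1.09 ± 0.35 for Scd1 (adjusted p of 1.00 for each). The value for Acss2 was -0.14 with the mean of its probe sets, where 1 probe set had 1.63, and -0.89 without replicate 1 of WT bulge. The value for Scd2 was 2.38 without replicate 1 of Runx1 iTG hair germ, and that for Mogat1 includes the array below the background limit. So the 6 genes called between populations in Runx1 iTG but not in WT, and the 2 called in WT but not in Runx1 iTG, are not shown to differ between genotypes. The averages over populations passed for none of the 36 genes either, beside 0.0495% of all genes, and 16 genes had an unadjusted p under 0.05 in limma, beside 8% of all genes.

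Other genes of the pathway, outside the 40, were set beside them, a list also chosen with earlier results of these data known. Of 52 listed, 46 were measured, of which 12 rose and 4 fell in hair germ against bulge in Runx1 iTG, and 11 rose and 2 fell in WT. Of all genes, 4.5% rose and 5.26% fell in Runx1 iTG, and 3.14% rose and 3.79% fell in WT. The median difference of the 46 was 0.38 in Runx1 iTG and 0.40 in WT, beside -0.06 and -0.08 over all genes. None of the 46 passed between Runx1 iTG and WT in either population. At an unadjusted p under 0.05 in limma there were 7 in hair germ and 1 in bulge, beside 6.78% and 5.96% of all genes. Cers4, a ceramide synthase, rose by 2.65 ± 0.29 in Runx1 iTG (adjusted p = 0.000546) and 2.77 ± 0.29 in WT (adjusted p = 0.000515). Hacd2, a dehydratase of elongation, rose by 2.09 ± 0.28 in Runx1 iTG (adjusted p = 0.00157) and 2.61 ± 0.28 in WT (adjusted p = 0.000582). Mgll, which cleaves monoacylglycerol, rose by 2.77 ± 0.37 in Runx1 iTG (adjusted p = 0.00166) and 2.75 ± 0.37 in WT (adjusted p = 0.00214). Hsd17b12, the ketoreductase of elongation, rose by 2.31 ± 0.30 in Runx1 iTG (adjusted p = 0.00136) and 1.96 ± 0.30 in WT (adjusted p = 0.00412), and Hacd3, a further dehydratase of the cycle, by 1.10 ± 0.24 in Runx1 iTG (adjusted p = 0.019) and 1.66 ± 0.24 in WT (adjusted p = 0.00322).

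Most listed markers of the sebaceous gland moved with these differences. The 9 sebocyte genes outside the list summed to 53733 to 54390 in Runx1 iTG hair germ and 34448 to 49317 in WT hair germ, against 6196 to 8099 in Runx1 iTG bulge and 5064 to 5381 in WT bulge. The largest values in hair germ samples were those of Ldhb, Krt79, Mgst1 and Plin2, at 5660 to 14774. Averaged over genotypes, Prdm1 fell by 2.19 in hair germ (limma adjusted p = 0.00998), and Plin5 did not pass (adjusted p = 0.36). Pparg, the receptor that drives sebocyte differentiation, had 4171 and 4079 in Runx1 iTG hair germ and 1069.8 and 2070.1 in WT hair germ, against 30.5 and 32.1 in Runx1 iTG bulge and 9.48 and 3.08 in WT bulge. Pparg and Cidea were below the background limit on both WT bulge arrays. Pparg was also below it on replicate 1 of Runx1 iTG bulge and just above it on replicate 2. Sebocyte sums were also higher in Runx1 iTG than in WT samples of both populations, though none of the markers passed between Runx1 iTG and WT in either population. Upper follicle markers summed to 30698 to 40423 in Runx1 iTG hair germ and 47173 to 66530 in WT hair germ, against 25259 to 36273 in Runx1 iTG bulge and 33076 to 40060 in WT bulge. Averaged over genotypes, as for the marker counts that follow, 4 of 7 rose and 1 fell in hair germ. Of all genes, 9.17% rose and 9.11% fell. Adipocyte markers were low, at 111 to 243 in Runx1 iTG hair germ and 617 to 777 in WT hair germ, against 228 to 393 in Runx1 iTG bulge and 271 to 406 in WT bulge, and 0 of 6 rose and 1 fell in hair germ. All 5 suprabasal epidermis markers and 3 of 6 fibroblast markers, Col1a1, Col1a2 and Col3a1, fell in hair germ. The fibroblast list summed to 351 to 699.8 in Runx1 iTG hair germ and 249.6 to 344 in WT hair germ, against 9072 to 9162 in Runx1 iTG bulge and 4834 to 5714 in WT bulge. In bulge samples Col1a1 had 3217 to 7741 and Col1a2 had 911 to 2459. Pdgfra, Lum and Dcn, of the same list, lay between 2.55 and 63.2 in bulge samples and did not pass. The part of sebaceous, upper follicle, epidermal or fibroblast cells in the lipid gene differences was not tested.

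**Figure D5:**
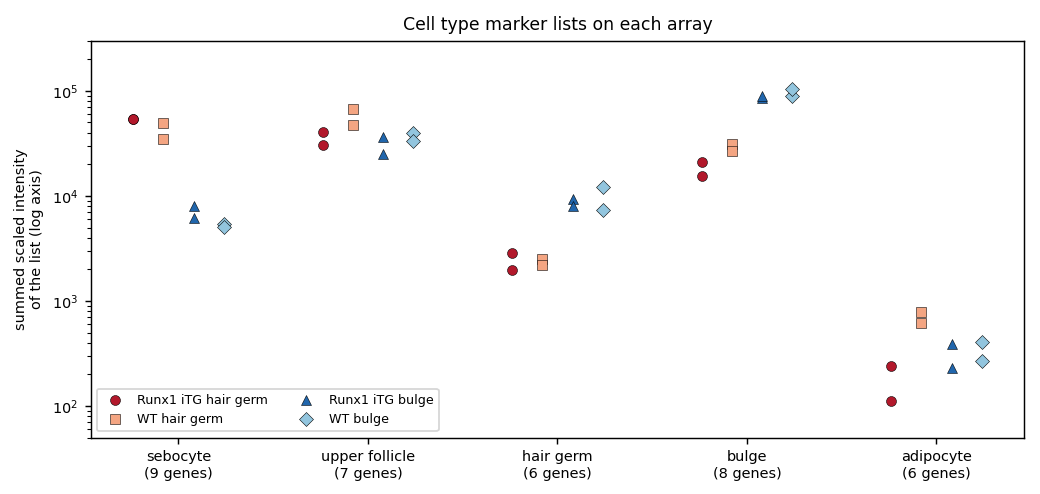
Summed scaled intensity (log axis) of marker lists for sebocytes, upper follicle, hair germ, bulge and adipocytes on each of the 8 arrays, with 1 marker per array and a colour and shape per group. Sebocyte sums of the 4 hair germ arrays are all above those of the 4 bulge arrays, and the hair germ and bulge lists lie lower on the hair germ arrays.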

How the data were processed

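From each sample 5 ng of total RNA was amplified (NuGEN Ovation Pico WTA) and biotin-labelled (NuGEN Encore) for Affymetrix Mouse Genome 430 2.0 arrays, per the labels' protocols. The authors deposited 45101 probe set intensity values per array, linear and, from the values, with a trimmed mean of 500 on each array. The sources used here do not name the program behind them.

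After 64 control probe sets were removed, the 75th percentile of every array was made equal. A floor was set at the smallest of the arrays' 5th percentiles (2.42, applied to 3.48% of values), and the deposited intensities then went to log2. Gene symbols came from the platform's annotation, with 1 symbol for 34945 probe sets, several for 932 and none for 9160, which left 18193 genes with the highest-mean probe set each. Background was 31.1, the 95th percentile of 27 bacterial control probe sets. Where every array of the dimmer group lay below it, and for Mogat1 in Runx1 iTG bulge, where 1 of 2 did, arrays below it were set to that limit and the fold is given as "at least N-fold". A limma 3.58.1 model (R 4.3.3) with a mean for each group covered all 8 arrays (intensity trend, 4 residual degrees of freedom, 7 contrasts). Benjamini-Hochberg adjustment was over all genes, with a threshold of 0.05. Simulated data were fitted for the hair germ minus bulge average only, with independent normal noise and no difference of sex or age. They do not test the other contrasts. The number of arrays limits the precision, and the median standard error between groups was 0.515 (log2). The p-values rest on 1 spread per gene, pooled over the 2 samples of each of the 4 groups and moderated by all genes. The labels name these samples biological replicates. Their spread includes the difference in sex and, in Runx1 iTG, that between day 20 and day 21. The sources used here do not say whether hair germ and bulge samples of 1 number came from 1 animal.

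The 40 genes and the marker and pathway lists were chosen with earlier results of these data known. Values in every sample are given for Scd1, Far2 and Fa2h, for genes past the threshold in any contrast, for the 4 with the smallest p per contrast, the 5 brightest, and Srebf1, Acaca, Fasn and Dgat2. Others are given by ranges, with a value where a difference was beyond 1. Up to 4 other pathway genes past the threshold were named per contrast. Alternatives were another scaling, an offset of 32, the mean of probe sets, no intensity trend, only the groups compared, dim genes left out, day 20 arrays only, the replicate number as a block, and each array left out.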

Additional observations from a re-analysis of the deposited data

How the results depend on the processing

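No gene's difference called between hair germ and bulge changed sign under any alternative. Of the genes called, 10 of 22 in Runx1 iTG, 11 of 18 in WT and 20 of 26 averaged over genotypes passed under every alternative. Leaving out 1 array at a time gave 15 to 20 genes in Runx1 iTG (15 without replicate 1 of Runx1 iTG hair germ), 12 to 19 in WT (12 without replicate 2 of WT hair germ or of WT bulge), 21 to 24 averaged over genotypes, and 0 throughout for the transgene comparisons and the interaction. Day 20 arrays alone left 10 genes called in Runx1 iTG. With dim genes left out, 1 gene, Fads3, passed for Runx1 iTG minus WT averaged over populations (adjusted p = 0.0346), where fewer genes were tested. The range of Scd2's difference between Runx1 iTG and WT hair germ was 1.83 to 4.27. Quantile normalization moved the median over all genes by over 0.1, to 0.03 for the average over genotypes, against -0.09 with the common percentile. Same-numbered deviations of 2 groups correlated between -0.0271 and 0.0822 across genes, which are not independent. With 1 such deviation per group, this cannot show whether same-numbered samples came from 1 animal. With the replicate block, 22 genes passed in Runx1 iTG, 21 in WT, 26 averaged over genotypes, and 0 in each transgene comparison and in the interaction. There were 2 arrays per group, and sex followed the replicate number. Probe sets near the background limit, such as Fads3 in WT hair germ, give bounds and no level.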

Other observations

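Because sex followed the replicate number, the difference between replicates was computed across the 4 groups with the replicate block, after the sex-linked signals had been seen. For replicate 2 minus replicate 1, 5 genes of all passed in limma and none of the 36 lipid synthesis genes did, with 5 of the 36 at an unadjusted p under 0.05, beside 5.52% of all genes. Those were Scd2 at -1.39, Mogat1 at -1.44 (with 1 array below the background limit), Elovl1 at -0.54, Agpat2 at -0.45 and Dgat1 at -0.43 on the log2 scale (adjusted p of 0.844 to 0.880), each lower in replicate 2 in 4 of 4 groups.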
